A study of Mus musculus with 10 samples.

Results

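Survivin, encoded by Birc5, was raised in SmoM2-expressing cells that had been targeted through the Involucrin promoter, and the transcriptome of these cells was compared with that of the same cells without the Survivin transgene. The comparison used 4 of the 10 libraries of the series. The 2 libraries of the gain-of-function group (GOF) came from mice that carry Krt14rtTA and Survivin-GOF on top of Inv-CREER and Rosa-SmoM2, and the 2 control libraries (Inv) from mice with Inv-CREER and Rosa-SmoM2 only, all labelled 8 weeks of TAM, read here as tamoxifen. All 20777 genes with a normalized count of at least 10 in at least 2 of these 4 libraries were tested, of 49671 gene IDs in the table.

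SmoM2 is a constitutively active form of Smoothened, the membrane protein that switches on Hedgehog signalling, and it carries a yellow fluorescent tag by which the epidermal cells were sorted. Both groups carry SmoM2 and the Inv-CREER driver, whose promoter belongs to Involucrin, a gene of differentiating keratinocytes. The study asked what Survivin does in the formation of basal cell carcinoma. The GOF mice differ from the controls by both Krt14rtTA and the Survivin transgene, so the effects of these cannot be told apart. Krt14rtTA is a transactivator driven by the promoter of a basal keratin, and the labels name neither doxycycline nor the sex or age of the mice. The sample descriptions of both controls contain the word pool, so that each control library may hold cells of several mice. The GOF descriptions lack that word, and how many mice each GOF library holds is not stated.

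Survivin is the smallest member of the inhibitor of apoptosis family. With Aurora B, INCENP and Borealin it forms the chromosomal passenger complex, which corrects kinetochore attachments and guides cytokinesis, and its own transcript normally peaks in G2 and mitosis. Basal cell carcinoma arises when Hedgehog signalling is switched on in epidermal cells that can give rise to a lasting clone. The labels do not state in which layer the cells targeted through Involucrin lay. In the controls the basal keratin Krt14 stood at 58626 and 54039, and Krt10, a keratin of differentiating cells, at 11766 and 11958.

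The libraries held between 7693179 and 8870759 recovered reads, and a value that 3 reads would give lay between 6.76 and 7.80 normalized counts. The replicates of the controls were alike, with r = 0.9815 across genes on the log2 scale (genes are not independent replicates), whereas the 2 GOF libraries had r = 0.9582 and GOF replicate 2 had only 0.9296 and 0.927 with the controls. Of the genes tested, 15.5% differed more than 2-fold between the GOF libraries and 6.37% between the controls. Keratinocyte markers were abundant in all 4 libraries, with summed values of 325238 and 322303 in the controls and 411945 and 326915 in GOF, led by Dsp and Krt5. Markers of T cells, neutrophils, Merkel cells and muscle cells summed to at most 149 in any of the 4 libraries, and Adgre1, Cd2, Ly6g, Retnlg, Csf3r and Tnnt3 were listed at 0 in all 4. Melanocyte markers, led by Dct and Mitf, summed to 2484 and 2569 in the controls and 2131 and 1918 in GOF, and myeloid markers, led by Cd74 and H2-Ab1, to 929 and 866 against 991 and 906.

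Some signals set the GOF libraries apart from the controls in ways the labels do not describe. Endothelial markers summed to 356 and 377 in the controls, 390 in GOF replicate 1 and 1496 in GOF replicate 2, where Kdr stood at 294, Cldn5 at 276, Cdh5 at 221 and Emcn at 242. In the other 3 libraries none of these 4 genes exceeded 49. The remaining markers of the list moved less or the other way. Pecam1 stood at 162 and 183 in the controls and 188 and 338 in GOF. Tek stood at 28 and 28 against 34 and 65, and Vwf was lower, at 89 and 75 against 41 and 60. The sum of the fibroblast list was carried by Dcn, which stood at 17515 and 19565 in the controls and at 37402 and 14512 in GOF. Col6a1 stood at 367, 355, 570 and 416 in the same order. Other collagens were lower in GOF, Col1a2 at 237 and 238 against 114 and 97 and Col1a1 at 105 and 111 against 85 and 89. Col3a1 stood at 41 and 43 against 13 and 47. No fibroblast marker was called, and the median of the list was -0.36. Xist, the RNA that coats the inactive X chromosome of female cells, stood at 194 and 145 in the controls and at 7589 and 56185 in GOF. Values of chromosome Y genes summed to 8126 and 8605 in the controls, 8895 in GOF replicate 1 and 3241 in GOF replicate 2. GOF replicate 1 thus held Y transcripts at control level beside a raised Xist, and GOF replicate 2 held both with less Y. Raised Xist was not particular to GOF in the series. The Krt14-CREER/Rosa-SmoM2/Survivin LOF libraries, which share the main fit, had Xist at 30024 and 59594. Their chromosome Y sums were 4138 and 2846. The part of these signals in the results was not tested beyond the settings given beside them, and sex composition and the transgene cannot be told apart in full.

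Birc5 itself stood at 237 and 265 normalized counts in the controls and at 7277 and 16384 in GOF. Both GOF libraries lay far above both controls, and replicate 2 held the higher value. The difference was 5.44 on the log2(value + 1) scale (SE 0.28, n = 2 and 2, limma adjusted p = 2.34e-06), and a fit to the 4 libraries alone gave an adjusted p of 0.00359. On the scale of means, the rise was 47.1-fold. The Krt14-CREER/Rosa-SmoM2 cells at 8 weeks stood at 1005 and 926, between both groups. Gene-level values do not show whether the reads came from the transgene or from the gene at chromosome 11, 117849251 to 117855743 (GRCm38).

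The partners of Survivin did not rise with it. Of the 9 measured genes of the chromosomal passenger list, Birc5 rose and 4 fell, where 16.5% of all genes tested were called at an adjusted p of 0.05, 7.43% higher and 9.05% lower. Cdca8, which encodes Borealin, stood at 999 and 971 in the controls and 746 and 687 in GOF, a log2 change of -0.46 (limma adjusted p = 0.012). Kif20a, a mitotic kinesin of the central spindle, fell by 0.42. Bub1, the kinase whose histone mark recruits the passenger complex to centromeres, fell by 0.49, and Gsg2, which encodes the kinase Haspin, fell by 0.84. Aurkb, the catalytic subunit, stood at 610 in each control and 503 and 494 in GOF, and its difference of -0.29 missed the threshold (limma adjusted p = 0.104). Incenp, the scaffold, gave -0.12 (limma adjusted p = 0.402), and the cohesin protectors Sgol1 and Sgol2a gave -0.27 and -0.32 (limma adjusted p = 0.163 and 0.0771). None of the 4 falls passed in the fit to the 4 libraries alone, where 1.96% of genes were called lower.

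Across the transcriptome, 1544 genes were higher and 1880 lower in GOF. All 3424 had GOF and control values that did not overlap, as had 56.3% of all genes tested (27.5% higher and 28.9% lower). A minimum change of 2-fold left 1396 calls (6.72%). Of the called genes, 2602 (76.0%) moved further in GOF replicate 2 than in replicate 1, and their median absolute difference from the controls was 0.688 in replicate 1 and 0.997 in replicate 2 on the log2 scale. Fitting the 4 libraries alone left 583 calls (2.81% of genes tested), 176 higher (0.847%) and 407 lower, of which 573 were also called in the fit over all 10 libraries. Without GOF replicate 2 the count was 2226 (10.7%), with 1039 higher (5.0%) and 1187 lower (5.71%). Without GOF replicate 1 it was 6248 (30.1%), with 2391 higher (11.5%) and 3857 lower (18.6%). The control libraries mattered as well, since 1176 and 968 calls were left without control replicate 1 and 2. Allowing each group its own spread gave 2455 calls (11.8%), 1045 higher (5.03%) and 1410 lower (6.79%). The median difference over all genes tested was -0.02.

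**Figure D1:**
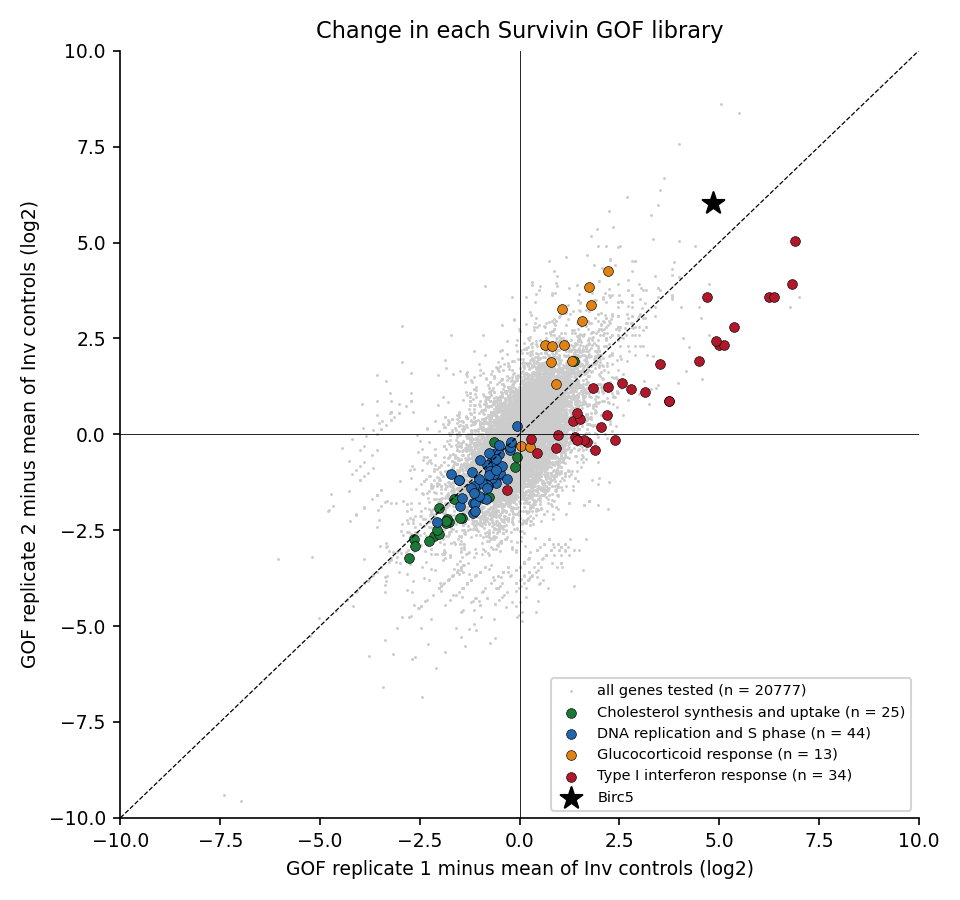
Difference of each tested gene from the mean of the controls (log2 of value + 1) in GOF replicate 1 (horizontal axis) and GOF replicate 2 (vertical axis), with 4 gene lists and Birc5 marked and the line of equal difference dashed. Cholesterol and replication genes lie near the line in both libraries, most glucocorticoid response genes above it and interferon response genes below it.

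Gene lists were described by the number of members called in each direction and by their median. Among the pathway lists, those with the lowest medians held genes of sebum and sterol synthesis and of DNA replication, and those with the highest medians held interferon and glucocorticoid response genes. Counts are of members that passed the filter on low values, such as 34 of 38 interferon genes, 11 of 19 hair shaft genes and 18 of 23 stress genes. Each count is to be read against the share of all genes tested that the same fit called: 7.43% higher and 9.05% lower as reported, 0.847% and 1.96% with the 4 libraries alone, 11.5% and 18.6% without GOF replicate 1, and 5.0% and 5.71% without GOF replicate 2. In the last pair of fits the GOF group holds 1 library, which is assumed to vary like the other groups. Counts for these fits are given in the order higher, then lower. The cholesterol list had a median of -1.64 in GOF replicate 1 and -2.18 in replicate 2, and the replication list -0.81 and -1.11. The interferon list had a median of 2.30 in replicate 1 and 0.86 in replicate 2, and the glucocorticoid list 1.06 and 2.32. With 1 library on each side, the difference between the GOF libraries has no test.

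**Figure D2:**
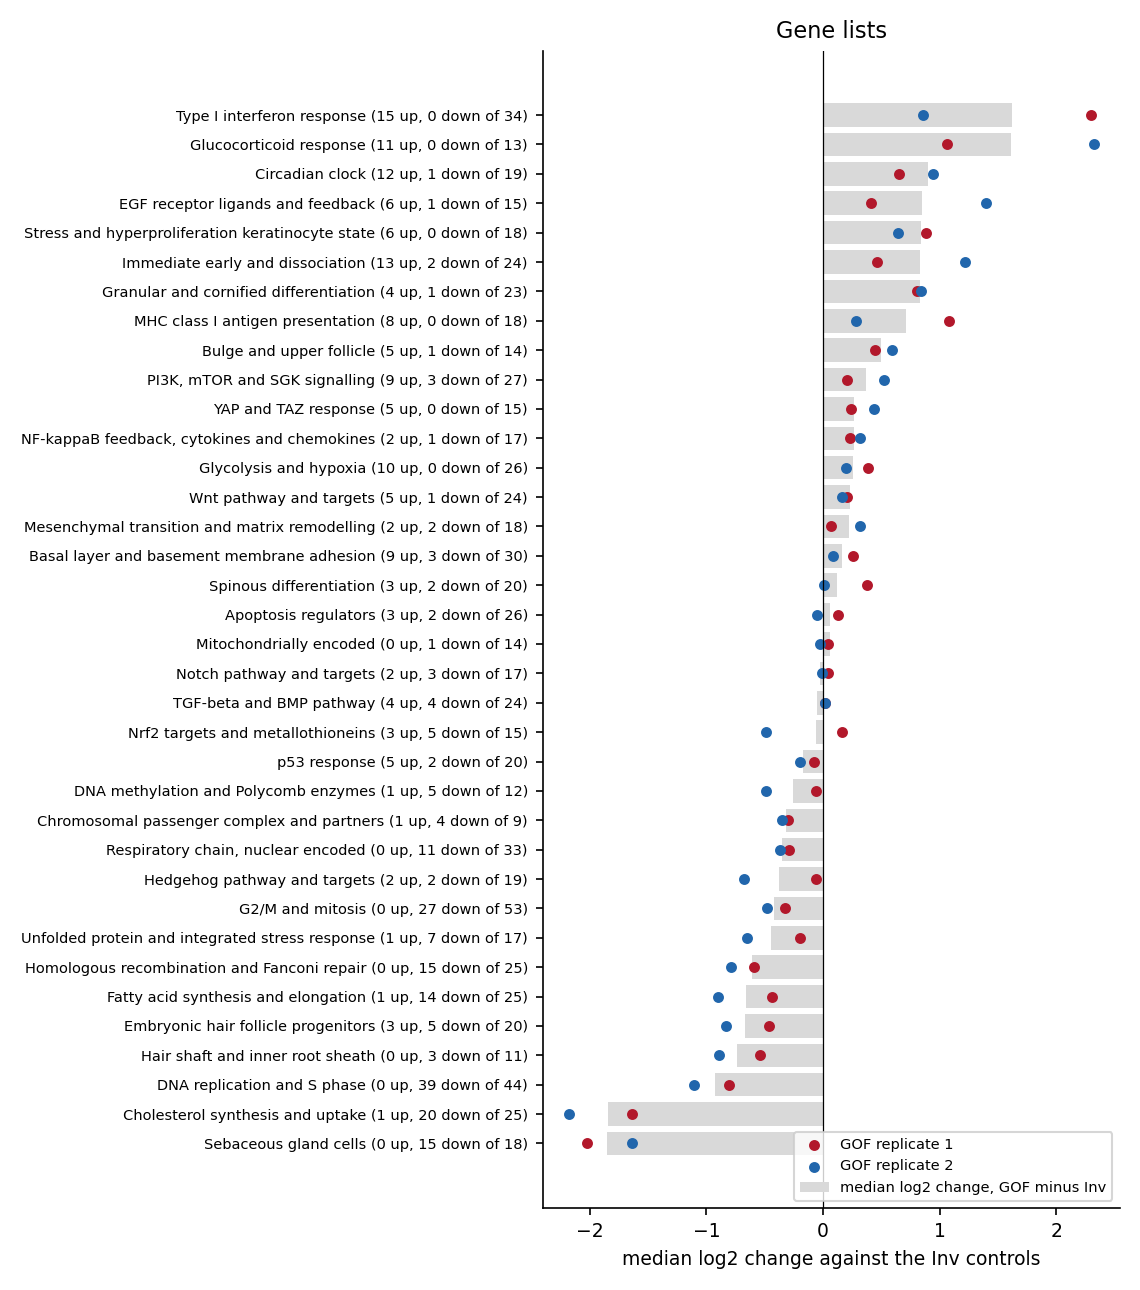
Median log2 difference from the controls for each pathway list, as fitted for the group (bars) and in each GOF library (points), with the number of members called higher and lower of those tested. Sebaceous and cholesterol lists lie lowest at -1.85 and -1.84, and the interferon and glucocorticoid lists highest at 1.62 and 1.61.

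The promoters of members that moved together were read from RefSeq sequence of GRCm38 (250 bases before the start). Each is shown because its gene is described below and its window held a motif of the factor family known for that list. For replication genes these were E2F motifs (TTTGGCGC, TTTCGCGC or TTTCCCGC on either strand, whose matches may overlap), for sterol genes a sterol response element (TCACNCCAC) and for interferon response genes the interferon-stimulated response element (GAAA, any 2 bases, then GAAA). Capitals mark the matches, and all runs are on the gene's own strand, 5′ to 3′. The windows are Mcm6 at chr1:128359706-128359955 (minus strand), Cdc6 at chr11:98907901-98908150 (plus), Hmgcs1 at chr13:119690101-119690350 (plus), Oas3 at chr5:120777660-120777909 (minus) and Isg15 at chr4:156200819-156201068 (minus).
Mcm6: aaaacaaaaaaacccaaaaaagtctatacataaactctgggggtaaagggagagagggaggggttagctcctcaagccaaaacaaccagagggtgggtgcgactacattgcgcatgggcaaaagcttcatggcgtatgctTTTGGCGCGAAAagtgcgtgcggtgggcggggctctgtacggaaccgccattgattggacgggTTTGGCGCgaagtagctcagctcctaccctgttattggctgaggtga
Cdc6: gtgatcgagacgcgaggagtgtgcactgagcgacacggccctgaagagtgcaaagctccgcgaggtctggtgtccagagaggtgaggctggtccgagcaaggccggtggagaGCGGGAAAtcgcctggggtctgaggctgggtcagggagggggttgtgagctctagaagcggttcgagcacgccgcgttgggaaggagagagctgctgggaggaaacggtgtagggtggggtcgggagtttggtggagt
Hmgcs1: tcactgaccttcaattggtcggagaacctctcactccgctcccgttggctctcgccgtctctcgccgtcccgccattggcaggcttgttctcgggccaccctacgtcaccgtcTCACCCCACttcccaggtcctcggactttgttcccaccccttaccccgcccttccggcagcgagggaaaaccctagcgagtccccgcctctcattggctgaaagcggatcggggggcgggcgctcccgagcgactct
Oas3: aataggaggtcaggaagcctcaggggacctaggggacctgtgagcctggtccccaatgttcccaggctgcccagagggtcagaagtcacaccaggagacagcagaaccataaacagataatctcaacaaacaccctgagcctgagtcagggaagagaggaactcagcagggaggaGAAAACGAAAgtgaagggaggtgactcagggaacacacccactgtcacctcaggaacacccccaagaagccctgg
Isg15: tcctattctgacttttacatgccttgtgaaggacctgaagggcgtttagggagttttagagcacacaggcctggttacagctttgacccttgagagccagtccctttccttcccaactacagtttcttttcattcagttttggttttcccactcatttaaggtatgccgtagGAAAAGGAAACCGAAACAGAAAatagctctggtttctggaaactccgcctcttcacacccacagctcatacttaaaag
Among replication genes with a promoter in the table, 10 of 37 (27.0%) held an E2F motif, against 3.07% of the 11841 tested genes with a promoter. The interferon element was in 14 of 25 interferon response promoters (56.0%) and 3.09% of those of tested genes. The sterol element in this spelling was in 1 of 17 cholesterol gene promoters, that of Hmgcs1, and in 1.3% of those of tested genes. A match describes letters in the window and is no evidence of binding.

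Sterol and fatty acid synthesis were lower in both GOF libraries, and most genes of both lists were called. Cells build cholesterol from acetyl-CoA through the mevalonate pathway, and in skin the sebaceous gland and the upper follicle make lipid in bulk. Of the 25 genes of the cholesterol list, 20 fell and 1 rose, where 9.05% of genes tested were called lower. In the fit to the 4 libraries alone 17 fell (background 1.96%). Without GOF replicate 2, 19 fell (background 5.71%), and without GOF replicate 1, 21 fell (background 18.6%). The median of the list was -1.84, against -0.02 over all genes tested.

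At the entry to the pathway, Hmgcs1, the cytosolic HMG-CoA synthase whose promoter is shown above, stood at 20420 and 21911 in the controls and 6805 and 6609 in GOF, a log2 change of -1.66 (SE 0.10, limma adjusted p = 7.79e-06). Idi1, which makes the isoprenoid unit dimethylallyl pyrophosphate, went from 7256 and 7689 to 1210 and 991, a log2 change of -2.77. In both genes the GOF values lay below both control values. Sqle, the squalene epoxidase, went from 3293 and 3329 to 1220 and 731. Msmo1, which removes methyl groups from the sterol ring, went from 11297 and 11577 to 1681 and 1220 (limma adjusted p = 2.26e-06). In these genes too both GOF libraries lay below both controls.

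The transcripts of the factors that drive lipid synthesis were not called. Srebf2, the transcription factor of the sterol pathway, stood at 7099 and 5846 against 5521 and 5369 (-0.24, limma adjusted p = 0.182). Srebf1, its relative for fatty acid genes, stood at 4692 and 4110 against 4769 and 4293 (0.04, limma adjusted p = 0.823). Protein levels and cleavage of these factors were not measured.

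Of the 25 genes of fatty acid synthesis and elongation, 14 fell and 1 rose (0 and 11 with the 4 libraries alone, 2 and 18 without GOF replicate 1, 1 and 12 without replicate 2). Elovl6, which elongates palmitate, went from 34645 and 38597 to 3944 and 3757, a log2 change of -3.25 (SE 0.16, limma adjusted p = 2.34e-06). Elovl3, an elongase of sebocytes and the follicle, went from 3409 and 3451 to 433 and 401. Acly, which supplies cytosolic acetyl-CoA, went from 9377 and 9134 to 3559 and 3417, and Fasn, the fatty acid synthase, from 24693 and 21178 to 8827 and 7555. Scd1, the stearoyl-CoA desaturase and among the most abundant transcripts here, went from 113521 and 118185 to 33817 and 49052, although near-identical Scd copies can share reads. Elovl7 was the member that rose, from 399 and 432 to 938 and 715.

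The sebaceous list shares several of these genes, and all 18 of its members had negative differences, 15 of them called lower (0 and 11 with the 4 libraries alone, 0 and 14 without GOF replicate 1, 0 and 13 without replicate 2). Soat1, which esterifies cholesterol for storage, went from 13750 and 14320 to 2008 and 1745, a log2 change of -2.91 (limma adjusted p = 2.26e-06). Far2, which makes the fatty alcohols of wax esters, went from 16075 and 17935 to 2518 and 2650. Krt79, a keratin of the upper follicle and sebaceous duct, went from 12521 and 11972 to 2924 and 3224. Pparg, the nuclear receptor of sebocyte differentiation, stood at 713 and 703 against 296 and 536 and missed the threshold (-0.83, limma adjusted p = 0.0767). In bulk libraries, fewer cells of a type and less RNA per cell cannot be told apart. For the sebaceous list the median log2 level was 10.70 in the controls, 9.12 in GOF and 8.72 in the Krt14-CREER/Rosa-SmoM2 libraries at 8 weeks, and for the cholesterol list 11.55, 9.49 and 10.49.

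**Figure D3:**
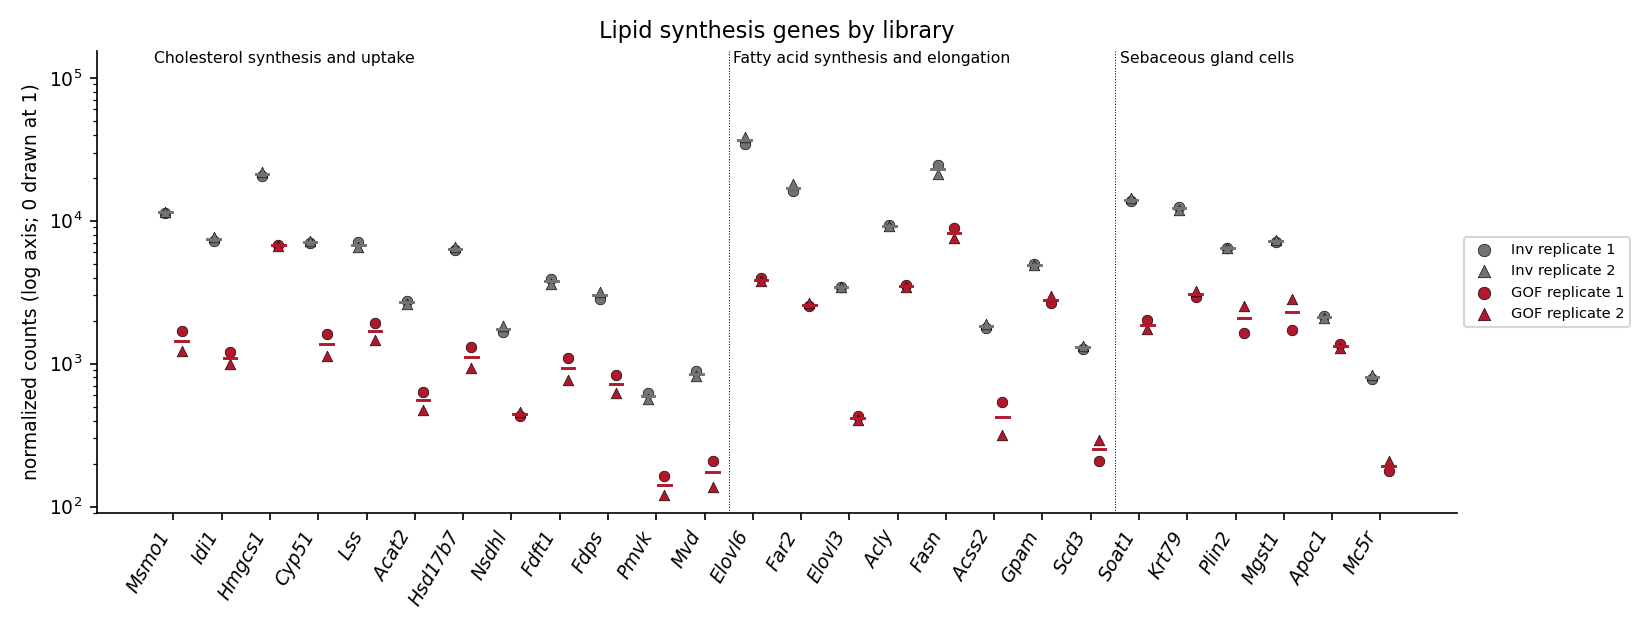
Normalized counts (log axis) of called members of the cholesterol, fatty acid and sebaceous lists, with controls in grey, GOF in red, replicate 1 as circles, replicate 2 as triangles and group means as lines. For every gene drawn both GOF libraries lie below both controls.

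Genes of DNA replication were lower in GOF while Survivin, a mitotic protein, was raised. Of 44 genes of DNA replication and S phase, 39 fell and none rose (0 and 14 with the 4 libraries alone). Without GOF replicate 2, 36 fell, and without GOF replicate 1, 40 fell. The median was -0.93, with -0.81 in GOF replicate 1 and -1.11 in replicate 2. It was -0.99 and -0.94 in the fits without control replicate 1 and 2. Those fits called fewer members of the list, and fewer genes over all tested.

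Ccne1, the cyclin that starts S phase, went from 299 and 274 to 68 and 58, a log2 change of -2.17 (SE 0.19, limma adjusted p = 6.18e-05). E2f1, a transcription factor that drives replication genes, went from 412 and 378 to 145 and 125. Cdc6, which loads the helicase and whose promoter is shown above, went from 294 and 360 to 114 and 89. Both GOF libraries lay below both controls in each of these genes. Mcm6, a subunit of the helicase, went from 4496 and 4686 to 2376 and 1885, a log2 change of -1.12 (SE 0.11, limma adjusted p = 0.000105), and Mcm2 from 2016 and 1981 to 885 and 484. Pcna, the sliding clamp, went from 2353 and 2459 to 1431 and 1233. Lig1, the ligase that joins Okazaki fragments, went from 2296 and 2263 to 1027 and 783, and Clspn, which relays replication stress, from 1036 and 1089 to 457 and 398. Orc6, a subunit of the origin complex, was the member with a positive difference, at 583 and 644 against 582 and 713 (0.07, limma adjusted p = 0.767).

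Of 53 genes of G2/M and mitosis, 27 fell and none rose, with a median of -0.42 (0 and 4 with the 4 libraries alone, 0 and 36 without GOF replicate 1, 0 and 16 without replicate 2). The difference from the replication list was not tested. Kif15, a spindle kinesin, went from 1652 and 1771 to 743 and 819, a log2 change of -1.13 (limma adjusted p = 6.27e-05). Top2a, which untangles sister chromatids, went from 6828 and 7079 to 3872 and 3520, and Ccna2, the cyclin of S and G2, from 2537 and 2570 to 1684 and 1501. Mki67, the marker of cycling cells, went from 20220 and 22158 to 13271 and 10602, a log2 change of -0.84. Cdk1, the mitotic kinase, stood at 881 and 829 against 621 and 718 and missed the threshold (-0.36, limma adjusted p = 0.0683). The median log2 level of the mitotic list was 10.04 in the controls, 9.70 in GOF and 10.64 in the Krt14-CREER/Rosa-SmoM2 libraries at 8 weeks, and that of the replication list 9.75, 8.93 and 9.86.

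Repair by homologous recombination, which is active in S and G2, had 15 of 25 genes lower and none higher (0 and 6 with the 4 libraries alone, 0 and 17 without GOF replicate 1, 0 and 11 without replicate 2). Brca1 went from 1357 and 1437 to 722 and 679, Exo1, an exonuclease that resects ends, from 512 and 576 to 200 and 195, and Fancd2, of the Fanconi pathway, from 603 and 531 to 224 and 167. Among 12 enzymes of DNA methylation and Polycomb, 5 fell and 1 rose (0 and 3 with the 4 libraries alone, 1 and 6 without GOF replicate 1, 0 and 5 without replicate 2). Uhrf1, which brings the maintenance methyltransferase to replicated DNA, went from 2651 and 2699 to 1248 and 1059, the smallest p of the replication list, which also holds it (a log2 change of -1.22, limma adjusted p = 4.59e-05). That methyltransferase, Dnmt1, went from 6323 and 6210 to 3639 and 2881. Hells, a chromatin remodeller, went from 2235 and 2356 to 994 and 575, and Tet1, which oxidises methylcytosine, from 1079 and 1360 to 542 and 219. Ezh2, the Polycomb methyltransferase, went from 2210 and 2387 to 1431 and 760. In these last genes GOF replicate 2 lay well below replicate 1.

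**Figure D4:**
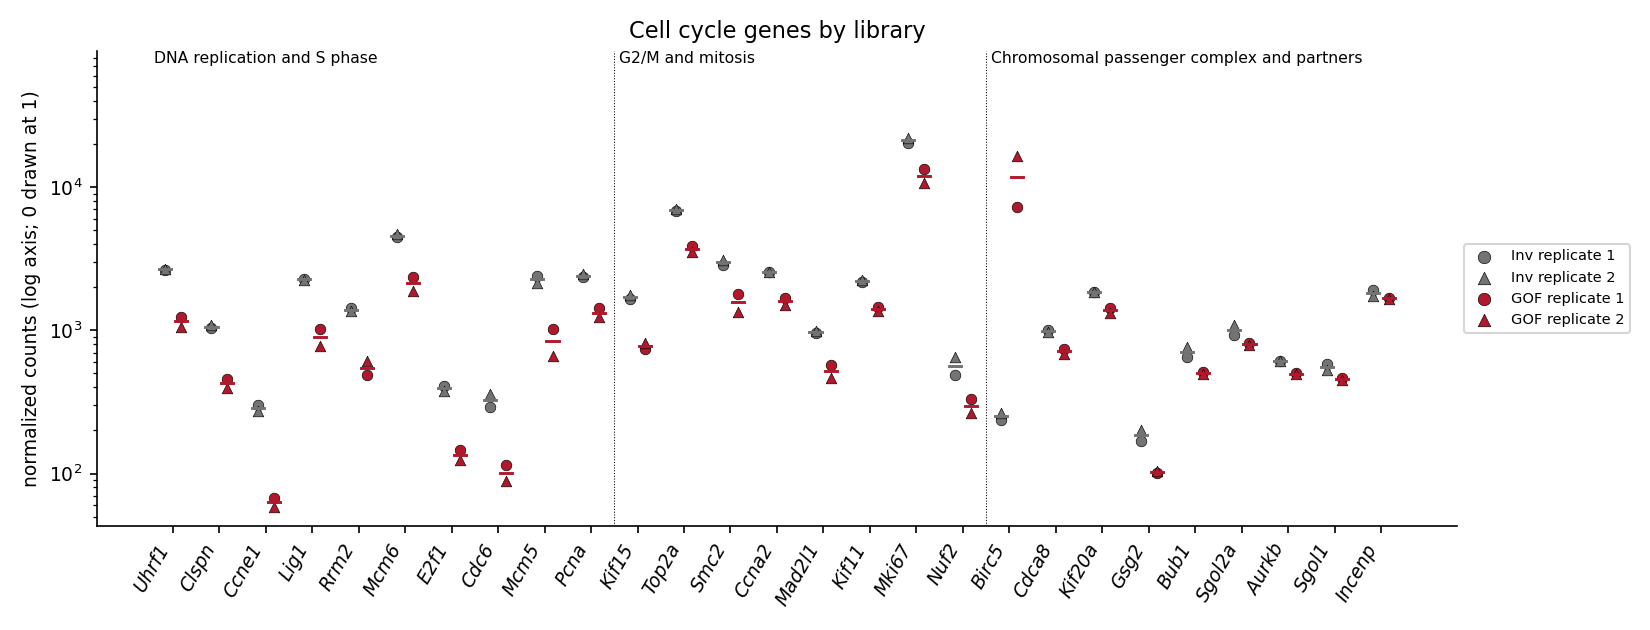
Normalized counts (log axis) of called replication and mitosis genes and of all measured passenger complex genes, with controls in grey, GOF in red, replicate 1 as circles, replicate 2 as triangles and group means as lines. Birc5 lies far above the controls in GOF, and the other genes drawn lie below them.

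Of 26 apoptosis genes 3 rose and 2 fell, 19.2% of the list against 16.5% of all genes tested (1 and 0 with the 4 libraries alone, 7 and 4 without GOF replicate 1, 2 and 2 without replicate 2). Pmaip1, which encodes the pro-death protein Noxa, went from 123 and 127 to 287 and 344, and Bcl2l2, a survival protein, from 699 and 703 to 1001 and 1061. Cycs, cytochrome c, went from 560 and 649 to 347 and 255. Of 20 genes of the p53 response, 5 rose and 2 fell (1 and 0 with the 4 libraries alone, 8 and 7 without GOF replicate 1, 3 and 1 without replicate 2). Sesn1 went from 863 and 892 to 1787 and 5462 and Trp53inp1 from 5634 and 6307 to 8503 and 15279, both with the higher value in GOF replicate 2, and Perp, a desmosomal p53 target, from 38929 and 39412 to 48449 and 49819.

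Genes that respond to glucocorticoids were higher in GOF, and more so in replicate 2. Glucocorticoid receptor binding induces a compact set of genes in keratinocytes, among them inhibitors of growth factor and inflammatory signalling. Of the 13 genes of this list, 11 rose and none fell, where 7.43% of genes tested were called higher (2 and 0 with the 4 libraries alone). The count was also 11 without either GOF replicate. The median was 1.61, and it was 1.7 and 1.6 in the fits without control replicate 1 and 2. Those fits called fewer members of the list, and fewer genes over all tested.

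Fkbp5, a chaperone of the receptor, stood at 1909 and 1915 in the controls and 4757 and 7165 in GOF, a rise of 1.61 (SE 0.22, limma adjusted p = 0.000971). Tsc22d3, the leucine zipper protein GILZ, stood at 617 and 649 against 2213 and 6580. Errfi1, which inhibits the EGF receptor, stood at 565 and 520 against 2520 and 10337, a rise of 3.23 (SE 0.45, limma adjusted p = 0.00122). In the latter genes GOF replicate 2 was higher than replicate 1, and both lay above the controls. Klf9 stood at 471 and 445 against 955 and 4381, Zbtb16, a transcriptional repressor, at 974 and 786 against 2581 and 6835, and Mt1, a metallothionein, at 2155 and 1827 against 4321 and 9890. Nr3c1, the receptor itself, stood at 5206 and 5605 against 5516 and 4384 (-0.14, limma adjusted p = 0.513). Hsd11b1, the enzyme that regenerates active glucocorticoid, was among the largest falls, from 415 and 450 to 41 and 24 (limma adjusted p = 0.0174).

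Sgk1, the serum- and glucocorticoid-induced kinase, stood at 892 and 901 in the controls and at 2972 and 12731 in GOF, a rise of 2.78 (SE 0.48, limma adjusted p = 0.00356, and no call with the 4 libraries alone). Sgk3, its relative on endosomes, stood at 1261 and 1491 against 2261 and 2291, with GOF values close together. Among 27 genes of PI3K, mTOR and SGK signalling 9 rose and 3 fell (0 and 0 with the 4 libraries alone, 14 and 4 without GOF replicate 1, 7 and 1 without replicate 2). Ndrg1, a substrate of SGK kinases, stood at 474 and 441 against 1020 and 2460, and Nedd4l, a ubiquitin ligase they phosphorylate, at 635 and 637 against 962 and 1176. Of 19 clock genes 12 rose and 1 fell (2 and 0 with the 4 libraries alone, 14 and 2 without GOF replicate 1, 8 and 0 without replicate 2). Rora, an activator of Arntl, stood at 1295 and 1407 against 2763 and 3793, Arntl, the core activator, at 433 and 441 against 780 and 1004, Cry1, a repressor, at 588 and 700 against 1150 and 1256, Bhlhe40 at 1204 and 1125 against 2203 and 4701, and Per1, which is also a glucocorticoid target, at 1718 and 1405 against 2732 and 7589. The hour of sampling is not given in the labels.

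Immediate early genes, which rise within minutes of stress and of tissue dissociation, had 13 of 24 members higher and 2 lower (2 and 0 with the 4 libraries alone, 16 and 2 without GOF replicate 1, 7 and 0 without replicate 2). Fosb stood at 1680 and 1394 against 2419 and 3372, Klf6 at 701 and 775 against 1410 and 3934, Dusp1, a phosphatase of MAP kinases, at 983 and 829 against 1684 and 2223, and Atf3 at 162 and 138 against 388 and 346. Their part in the glucocorticoid result was not tested, and Dusp1 is counted in both lists.

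Interferon response genes were higher in GOF, and here replicate 1 was the higher library. Type I interferons bind a surface receptor and induce genes that block viral RNA and raise antigen presentation. Of 34 tested genes of 38 in the list, 15 rose and none fell, with a median of 1.62. Members such as Trim30a and Isg15, at 0 in both controls, passed the filter on low values only through GOF, and so had to differ. With a minimum of 50 in place of 10, 21 members were left, of which 9 rose and none fell, with a median of 0.96. Over all genes that fit called 3638, of which 45.2% were higher. None of the shares given above belongs to that fit, so its count of 9 is given without a background. All 34 had a higher value in GOF replicate 1 than in replicate 2. The result rested on replicate 1: without it 5 rose and 2 fell, where 11.5% of all genes were called higher and 18.6% lower, and without replicate 2, 25 rose and none fell, where 5.0% were called higher. With the 4 libraries alone 1 rose.

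Trim30a stood at 0 and 0 in the controls and 118 and 32 in GOF, and Isg15, a ubiquitin-like modifier whose promoter holds 3 overlapping matches to the response element, at 0 and 0 against 82 and 11. Oas3, a sensor of double-stranded RNA, stood at 10 and 7 against 383 and 65 (4.08, SE 0.72, limma adjusted p = 0.00411). Ifi44 stood at 3 and 0 against 227 and 29. These levels were low in the controls, near the value of 3 reads, so that the fitted changes depend on the added 1. Irf7, the factor that amplifies interferon, stood at 78 and 61 against 323 and 164, and Ifit1, which binds viral RNA, at 10 and 21 against 542 and 78. Usp18, a feedback inhibitor, stood at 7 and 10 against 210 and 34 and missed the threshold (limma adjusted p = 0.0562).

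The MHC class I list followed the same order. Of 18 genes 8 rose and none fell (none with the 4 libraries alone, 3 higher and 3 lower without GOF replicate 1, 12 and 0 without replicate 2), and all 18 were higher in GOF replicate 1 than in replicate 2. H2-D1, a classical heavy chain, stood at 2176 and 1911 against 7714 and 3619 (1.37, limma adjusted p = 0.0177). H2-Q4 and H2-Q6, non-classical chains with near-identical copies whose reads may be split between them, stood at 526 and 450 against 2314 and 853 and at 66 and 48 against 556 and 128. Tap1, which carries peptides into the endoplasmic reticulum, stood at 963 and 895 against 2013 and 1259. B2m, the light chain, stood at 2287 and 2649 against 8089 and 2972 and missed the threshold (limma adjusted p = 0.073). GOF replicate 1 lay above both controls in each of these genes.

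**Figure D5:**
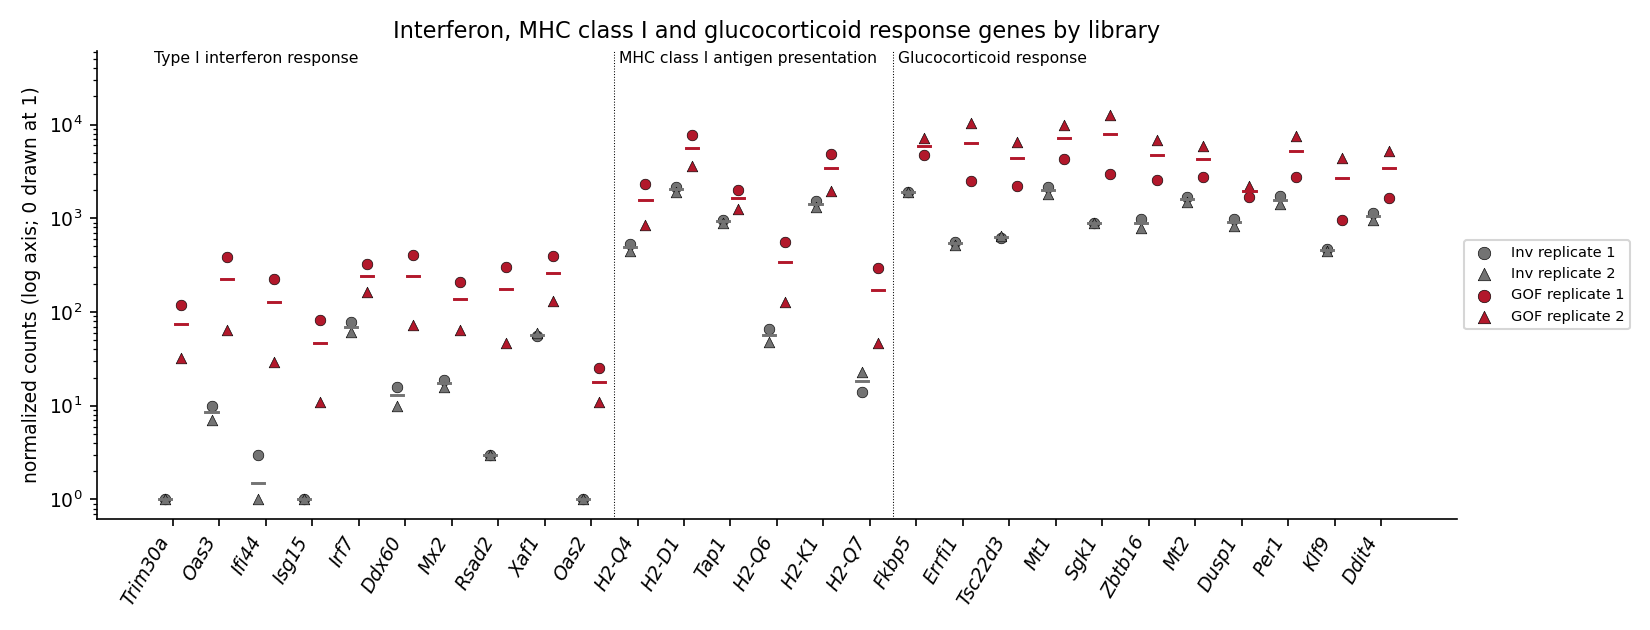
Normalized counts (log axis, values of 0 drawn at 1) of called interferon, MHC class I and glucocorticoid response genes, with controls in grey, GOF in red, replicate 1 as circles, replicate 2 as triangles and group means as lines. GOF replicate 1 is the higher GOF library for interferon and MHC genes, and replicate 2 for the glucocorticoid genes drawn.

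Several hemidesmosome and laminin genes rose. Basal keratinocytes hold on to the basement membrane through integrin alpha-6 beta-4, plectin and laminin-332. Of 30 genes of this list 9 rose and 3 fell (3 and 2 with the 4 libraries alone, 10 and 8 without GOF replicate 1, 10 and 3 without replicate 2). Lamb3, the beta chain of laminin-332, stood at 4453 and 3900 in the controls and 6680 and 6227 in GOF (0.63, limma adjusted p = 0.00196). Itga3 stood at 1682 and 1425 against 3297 and 4891, Itgb4 at 8155 and 6795 against 12338 and 13002, and Col17a1, the hemidesmosomal collagen, at 20291 and 18904 against 28708 and 26645. The 3 that fell were Lamb1, a chain of other laminins, from 4078 and 4029 to 2080 and 1693, and the basement membrane proteins Frem2, from 7818 and 7619 to 4766 and 2520, and Fras1, from 3177 and 3033 to 1609 and 1350. Krt5 and Krt14, the basal keratins, were not called: Krt14 stood at 58626 and 54039 against 66834 and 47388.

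Differentiation had calls in both directions. Of 20 spinous genes 3 rose and 2 fell (2 and 1 with the 4 libraries alone, 3 and 6 without GOF replicate 1, 5 and 0 without replicate 2). Klf4, a factor of the suprabasal barrier programme, stood at 2401 and 2247 against 5516 and 6638 (1.38, limma adjusted p = 0.000132), and the desmosome genes Pkp1 and Dsp at 13911 and 13532 against 23824 and 25189 and at 81243 and 85178 against 116068 and 110176. Calml3 went from 1532 and 1590 to 907 and 853. Krt10 stood at 11766 and 11958 against 17371 and 11538 and Ivl, whose promoter drives the Cre, at 78 and 43 against 118 and 73, and neither was called (limma adjusted p = 0.581 and 0.235). Of 23 granular genes 4 rose and 1 fell (0 and 0 with the 4 libraries alone, 4 and 1 without GOF replicate 1, 3 and 0 without replicate 2). The main fit thus called 21.7% of the granular list, against 16.5% of all genes tested. Abca12, which loads lamellar bodies with lipid, stood at 403 and 479 against 1181 and 765. Pnpla1, an enzyme of acylceramide synthesis, stood at 53 and 68 against 142 and 149. Klk7, a protease of shedding, stood at 26 and 34 against 53 and 123 and Nipal4 at 135 and 111 against 246 and 206. Of 18 stress keratinocyte genes 6 rose and none fell (0 and 0 with the 4 libraries alone, 7 and 3 without GOF replicate 1, 6 and 0 without replicate 2). Among them were Itga5, from 203 and 186 to 383 and 310, Hbegf, an EGF family ligand, from 41 and 55 to 101 and 250, S100a9, from 10 and 16 to 73 and 52, and Sprr1b, from 12 and 10 to 51 and 21.

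The Hedgehog pathway, switched on by SmoM2 in both groups, had 2 of 19 genes higher and 2 lower, near the background of 7.43% and 9.05%. This count depended on the library: without GOF replicate 1, 10 were lower and 2 higher, with a median of -0.68 and a background of 18.6% lower, and without GOF replicate 2, 1 was lower and 3 higher, with a median of -0.06. All 19 genes were higher in GOF replicate 1 than in replicate 2. Gli1, the transcriptional output of the pathway, stood at 4194 and 3699 against 3966 and 3461 (-0.09, limma adjusted p = 0.636). Ptch1, the receptor and a target, stood at 26293 and 25906 against 26265 and 14710 (-0.41, limma adjusted p = 0.336), with GOF replicate 2 alone below the controls. Smo, whose value includes reads of SmoM2 where they map to it, stood at 7436 and 6743 against 7755 and 6323. The calls were Gli2, from 3422 and 3191 to 5418 and 4059, and the co-receptor Boc, from 1275 and 1204 to 1972 and 1961, on the higher side, and Hhip, a decoy receptor and target, from 4294 and 4555 to 2941 and 799, and Evc, a ciliary partner of Smoothened, from 542 and 497 to 320 and 167, on the lower side. All 4 calls were lost with the 4 libraries alone.

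Follicle genes had calls in both directions. Of 20 genes of embryonic follicle progenitors 3 rose and 5 fell (1 and 0 with the 4 libraries alone, 3 and 10 without GOF replicate 1, 2 and 4 without replicate 2). Lhx2, a factor of follicle stem cells, went from 7891 and 7957 to 5714 and 4389, and Foxi3, a factor of hair placodes, from 1657 and 1416 to 801 and 175. Cxcr4 went from 66 and 77 to 20 and 19. Pthlh, a secreted hormone-like factor, stood at 107 and 89 against 258 and 362, and Wnt10a, a ligand of early follicles, at 374 and 328 against 739 and 549. Of 14 bulge and upper follicle genes 5 rose and 1, Krt79, fell (3 and 1 with the 4 libraries alone, 7 and 2 without GOF replicate 1, 5 and 1 without replicate 2). Lgr6, a marker of the isthmus, stood at 1602 and 1482 against 3237 and 5044, Dkk3 at 328 and 332 against 753 and 1165, and Plet1, of the upper follicle junction, at 735 and 662 against 1123 and 1659. Of 11 hair shaft and root sheath genes 3 fell and none rose (0 and 1 with the 4 libraries alone, 0 and 5 without GOF replicate 1, 1 and 0 without replicate 2), Krt73 from 173 and 197 to 49 and 21, Krt28 from 217 in each control to 80 and 63, and Hoxc13, a factor of the hair cortex, from 1054 and 983 to 674 and 549.

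Other signalling lists had calls in one or both directions, and most were lost with the 4 libraries alone. In the Wnt list 5 of 24 rose and 1 fell (1 and 1 with the 4 libraries alone, 5 and 4 without GOF replicate 1, 5 and 1 without replicate 2). The fall was Wnt5a, a ligand of non-canonical signalling, from 895 and 861 to 294 and 250 (a log2 change of -1.69, limma adjusted p = 3.87e-05), and Fzd6, a receptor, stood at 1918 and 1857 against 2453 and 3674. In the Notch list 2 of 17 rose and 3 fell (0 and 0 with the 4 libraries alone, 3 and 5 without GOF replicate 1, 2 and 0 without replicate 2). Jag2, a ligand, stood at 4485 and 3787 against 6502 and 8286, and the targets Hes1 and Nrarp went from 981 and 976 to 787 and 656 and from 1923 and 1626 to 1335 and 903. In the TGF-beta and BMP list 4 of 24 rose and 4 fell (1 and 1 with the 4 libraries alone, 4 and 4 without GOF replicate 1, 3 and 1 without replicate 2). Here Ltbp1, which stores latent TGF-beta, went from 3042 and 2864 to 1123 and 1147, and Tgfbi, a target, stood at 4783 and 4729 against 7808 and 7737. In the EGF receptor list 6 of 15 rose and 1 fell (0 and 0 with the 4 libraries alone, 10 and 1 without GOF replicate 1, 4 and 1 without replicate 2). Nrg1, a ligand of ERBB3, stood at 73 and 57 against 152 and 175. Errfi1, counted in the glucocorticoid list too, was among the 6 that rose. In the YAP and TAZ list 5 of 15 rose and none fell (1 and 0 with the 4 libraries alone, 9 and 1 without GOF replicate 1, 5 and 1 without replicate 2). Ctgf stood at 920 and 917 against 2287 and 2364, Tead4 at 123 and 116 against 291 and 544 and Wwtr1, which encodes TAZ, at 1068 and 1145 against 1869 and 2527. In the NF-kappaB list 2 of 17 rose and 1 fell (0 and 0 with the 4 libraries alone, 6 and 1 without GOF replicate 1, 3 and 1 without replicate 2). The share called in the main fit, 17.6%, was near the 16.5% of all genes tested. Tnfaip3, a feedback inhibitor, went from 2048 and 1854 to 1258 and 978, and Nfkbiz stood at 840 and 721 against 1217 and 3385.

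Of 26 glycolysis and hypoxia genes 10 rose and none fell (3 and 0 with the 4 libraries alone, 7 and 4 without GOF replicate 1, 9 and 0 without replicate 2). Slc2a1, the glucose transporter GLUT1, stood at 1254 and 1202 against 3497 and 3661 (1.54, SE 0.13, limma adjusted p = 3.96e-05). Egln3, a prolyl hydroxylase that is itself a hypoxia target, stood at 651 and 646 against 1794 and 1896, and Bnip3, a mitophagy receptor, at 358 and 396 against 693 and 822. Car9, a carbonic anhydrase induced by hypoxia, stood at 16 and 21 against 77 and 81, and Pfkp, a phosphofructokinase, at 1416 and 1432 against 2174 and 2509. Of 33 nuclear-encoded respiratory chain genes 11 fell and none rose (0 and 0 with the 4 libraries alone, 0 and 16 without GOF replicate 1, 0 and 6 without replicate 2), with log2 changes between -0.37 and -0.71. Cyc1, cytochrome c1, went from 1081 and 929 to 630 and 598, Cox6c from 2485 and 2340 to 1597 and 1534, Atp5c1 from 4772 and 5232 to 3626 and 3567, and Sdha from 2738 and 2897 to 2100 and 1729. Of 14 mitochondrially encoded genes 1 fell, mt-Nd1, from 60123 and 75006 to 52560 and 40208, a call lost with the 4 libraries alone.

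Of 17 genes of the unfolded protein and integrated stress response 7 fell and 1 rose (0 and 3 with the 4 libraries alone, 2 and 10 without GOF replicate 1, 1 and 6 without replicate 2). Hspa5, the chaperone BiP, went from 5199 and 5620 to 3302 and 3362, Hsp90b1, the chaperone GRP94, from 7151 and 8050 to 4795 and 3991, Calr, calreticulin, from 5584 and 6011 to 3521 and 2683, and Pdia4, a disulfide isomerase, from 2032 and 2159 to 1191 and 718. Among 15 Nrf2 targets and metallothioneins 3 rose and 5 fell (0 and 2 with the 4 libraries alone, 3 and 7 without GOF replicate 1, 2 and 3 without replicate 2). The 3 that rose were Mt1, Mt2 and Gclc, of which Mt1 and Mt2 are also counted in the glucocorticoid list. Gsta4 and Mgst1, glutathione transferases, went from 428 and 459 to 121 and 104 and from 7122 and 7321 to 1732 and 2845. Gclm, of glutathione synthesis, went from 1534 and 1674 to 1015 and 825. Among 18 mesenchymal genes 2 rose and 2 fell (0 and 1 with the 4 libraries alone, 5 and 4 without GOF replicate 1, 1 and 1 without replicate 2). The main fit thus called 22.2% of the mesenchymal list, against 16.5% of all genes tested. Cdh1, E-cadherin, stood at 6792 and 6722 against 9570 and 8244, and Snai2 at 1677 and 1507 against 1965 and 2244. Fn1, fibronectin, stood at 942 and 922 against 421 and 461, and Twist2 at 39 and 57 against 17 and 3.

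The largest changes that both fits called, in genes with a mean of at least 50, were led by Xist, Birc5 and Tsix on the higher side. Tsix, the antisense partner of Xist, stood at 80 in each control and 933 and 6749 in GOF, and reads of the overlapping pair cannot be told apart where strand was not counted. Pdk4, a kinase that inhibits pyruvate dehydrogenase, stood at 14 and 10 against 140 and 817 (4.72, SE 0.73, limma adjusted p = 0.00209). Il22ra2, a soluble inhibitor of interleukin 22, stood at 7 and 3 against 82 and 125. Il1r2, a decoy receptor of interleukin 1, stood at 28 and 14 against 123 and 227. Myadm, a membrane protein, stood at 588 and 533 against 4819 and 3679 (2.91, SE 0.17, limma adjusted p = 5.85e-06), and reads shared with an overlapping gene model cannot be told apart. St3gal1, a sialyltransferase, stood at 41 and 61 against 364 and 346. Olfr920 stood at 39 and 43 against 272 and 315, Efcab8 at 44 and 25 against 212 and 232, and RP23-292C5.8, which lies within Slc6a6, at 73 and 46 against 253 and 448.

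On the lower side, Hsd3b6, a steroid dehydrogenase, went from 701 and 694 to 34 in each GOF library, a log2 change of -4.32 (SE 0.37, limma adjusted p = 5.09e-05). Aldh1a7 went from 94 and 100 to 3 and 3, which lies under the value of 3 reads. St3gal5, which makes the ganglioside GM3, went from 1040 and 1150 to 142 and 39, while its relative St3gal1 was higher. Panx3, a channel of keratinocytes and bone, went from 1488 and 1538 to 145 and 99 (a log2 change of -3.65, limma adjusted p = 1.49e-05). Aadacl3 went from 1789 and 1814 to 178 and 138, Pla2r1, a phospholipase receptor, from 1978 and 2125 to 210 and 201, and Serpina3j, of a cluster with near-identical copies, from 2656 and 2791 to 195 and 190. Slc15a2, a peptide transporter, went from 1152 and 1238 to 183 and 68, Rarres1 from 390 and 452 to 51 and 34, Rgag1 from 187 and 192 to 13 and 13, and Armcx4 from 308 and 409 to 34 and 24. Rgag1 and Armcx4 lie on chromosome X. In all of these genes the GOF libraries lay below both controls, and in Hsd3b6, Pla2r1 and Serpina3j they were nearly equal.

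On chromosome X the calls were 28 higher and 79 lower of 601 genes tested (17.8%, against 16.5% over all genes tested). The calls there leaned further to lower than over all 20777 genes tested, where 1544 were higher and 1880 lower. The median of chromosome X was -0.12, against -0.02 over all genes tested. A fit without genes of chromosomes X and Y changed none of the calls on named genes that it still held. Each gene is fitted on its own, so dropping other genes barely alters its result. That fit is therefore no test of sex composition. When the log2 level of Xist in each library was added to the model, a choice made after the data were seen, 44 genes were called (0.212% of those tested), 16 higher (0.077%) and 28 lower (0.135%). In that fit the cholesterol list kept 3 lower members with a median of -0.98, the sebaceous list 5, the replication list none with a median of -0.42, the glucocorticoid list none with a median of -0.50 and the interferon list 2 higher with a median of 4.64. Xist differs strongly between the 2 GOF libraries as well as from the controls, so that this fit and the transgene cannot be told apart beyond these values. The fit keeps the group means, so its Xist slope rests on differences within groups, the largest between the GOF libraries. It carries that difference over to the Xist level of the controls, and is thus no test of sex or of the transgene.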

How the data were processed

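Bulk RNA sequencing was done on polyA RNA of sorted SmoM2-YFP epidermal cells, extracted with a column micro kit and made into Ovation Solo libraries, per the labels' protocols. The submitters' processing notes name STAR, HTSeq and GRCm38 (mm10), with no version, and whether counting used strand was not stated there. The values deposited by the authors are normalized counts, treated as a score: each column sums to 20011195 to 20014054, and nearly all values are whole reads times 1 step per library. Gene positions came from GENCODE M21, which matched 49412 of 49671 IDs. The log2 of each value plus 1 was fitted over the 10 libraries in 5 groups of 2 with limma 3.58.1 in R 4.3.3 (eBayes with trend, two-sided tests, Benjamini-Hochberg over 20777 genes, called at 0.05), with 5 residual degrees of freedom. GOF had a wider spread than other groups (chi-square of reads between replicates per degree of freedom 19.04, against 2.475 to 6.215), so a fit to the 4 libraries alone (2 residual degrees of freedom) is given beside each list. An exact permutation test of 2 against 2 cannot go below p = 0.333. No label states that replicate libraries come from different mice, so p-values reflect only how far libraries differ, which may be technical. Floors cover counting error only. Named genes were Birc5, Smo, Gli1, Ptch1, Krt14, Krt10, Ivl and the passenger list, the 12 largest rises and falls called in both fits (mean at least 50, no predicted models), up to 4 called genes of smallest p per pathway list, the most abundant markers of the main marker lists, and called genes that moved against their list in 4 lists. The following were chosen after their values were seen: Mki67, Sqle, Fasn, Scd1, Cd36, Lpl, Fa2h, Slc6a6, Il6ra, Ppl, Zbtb16, Klf9, E2f1, Cdc6, Mcm6, Mcm2, Pcna, Cdk1, Srebf1, Srebf2, Pparg, Nr3c1, B2m, Ifit1, Per1, Col17a1, Irf7, Usp18, Ezh2, Car9, Foxi3, Elovl7, Cdh5, Kdr, Cldn5, Emcn, Orc6. The genes, lists and tests were chosen with earlier results of these data known, so lists are described by counts and medians without a test. The model was tested on simulated data in which all groups had the same spread, so the wider spread of GOF was not covered. Alternatives covered pseudocounts of 0.5 and 5, the filter on low values, rescaling, quantile normalization, robust and group-weighted fits, voom on recovered reads, each of the 4 GOF and control libraries left out in turn, a replicate block, stricter thresholds and, added after seeing the data, Xist as a covariate and a fit without sex chromosomes. Promoters are RefSeq sequences of GRCm38. Some genes that the rule names are not reported here.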

Additional observations from a re-analysis of the deposited data

How the results depend on the processing

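Of 216 named genes, 185 were called, and 17 alternative fits were run. Among the called named genes with a value in each fit, none changed direction under any alternative except that with Xist as a covariate. The number of called genes, 3424 as reported, was 583 with the 4 libraries alone, 1360 at an adjusted p of 0.01, 1396 with a 2-fold minimum and 44 with Xist as a covariate. Leaving out 1 library gave between 968 and 6248. Without GOF replicate 1 it was 6248, without GOF replicate 2, 2226, and without control replicate 1 or 2, 1176 and 968, so that single libraries move the count by over 1.5 times. The replicate block gave 3458 and changed none of the 185 named calls. The deviations of same-numbered libraries had correlations between -0.06112 and 0.04912, so the numbers were not taken to pair the libraries. Of the 185 named calls, 97 remained past the threshold with the 4 libraries alone, 157 with no filter on low values, 174 with 1 weight per group and 178 with voom. With Xist as a covariate, chosen after seeing the data, the medians were -0.42 for replication, -0.08 for mitosis, -0.98 for cholesterol, -0.50 for the glucocorticoid response and 4.64 for interferon. The Xist slope of that fit rests on differences within groups, chiefly between the GOF libraries, so its changes of direction are no test of sex. In that fit 13 of 184 named calls remained and 38 changed direction, and the cause was not tested. Those that rose in the main analysis had log2 changes of Bhlhe40 -0.86, Errfi1 -0.50, Fosb -0.09, Fzd6 -0.42, Hbegf -0.97, Klf6 -1.14, Klf9 -2.05, Klk7 -0.45, Maml1 -0.41, Mt1 -0.39, Ndrg1 -0.64, Nfkbia -0.88, Nfkbiz -1.49, Per1 -1.34, Sesn1 -1.28, Sgk1 -1.35, Snai2 -0.10, Tead4 -0.24, Trp53inp1 -0.76, Tsc22d3 -0.40, Tsix -1.18, Wwtr1 -0.12, Zbtb16 -0.76. Those that had fallen had Evc 0.54, Ezh2 0.53, Foxi3 2.03, Frem2 0.34, Hes1 0.04, Hhip 1.93, Krt28 0.25, Krt73 0.38, Lhx2 0.06, Mcm2 0.06, Nrarp 0.41, Pdia4 0.28, Tet1 0.73, Twist2 1.70, mt-Nd1 0.14. Depth limits genes under the value of 3 reads, such as Isg15 in the controls.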

Other observations

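Further lipid genes outside the lists, named after their values were seen, were lower in both GOF libraries. Cd36, a fatty acid transporter, stood at 4426 and 5090 normalized counts in the controls and 611 and 822 in GOF (log2 change -2.74, limma adjusted p = 5.68e-06). Lpl, the lipoprotein lipase, stood at 3320 and 3387 against 481 and 676. Fa2h, which hydroxylates fatty acids of sphingolipids, stood at 15247 and 14767 against 2443 and 2819. All 3 were also called in the fit to the 4 libraries alone, and the Krt14-CREER/Rosa-SmoM2 libraries at 8 weeks stood at 697 and 692 for Cd36, 810 and 663 for Lpl and 1805 and 1400 for Fa2h.

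Among abundant genes that rose, Slc6a6, the taurine transporter, stood at 12728 and 12205 against 33757 and 57337 (1.82, limma adjusted p = 0.000395), above the 9222 and 9469 of the Krt14-CREER/Rosa-SmoM2 libraries at 8 weeks. Il6ra, the interleukin 6 receptor, stood at 594 and 540 against 2350 and 4048, and Ppl, the cornified envelope protein periplakin, at 4530 and 4250 against 11001 and 14608. Each lay above both the controls and the Krt14-CREER/Rosa-SmoM2 libraries, at 445 and 447 for Il6ra and 5127 and 4970 for Ppl.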
